A study of Homo sapiens with 4 samples.

Results

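Control transfections of the established colon cancer line HCT116, which is of human origin, are described here by the level of every measured gene. They are 2 of the 4 arrays of the series, 1 that received the empty plasmid pcDNA3.1 (the vector control) and 1 that received a scrambled single-stranded RNA (the scrambled RNA control). The other arrays received pcDNA3.1-pri-miR663a, a plasmid that makes the precursor of microRNA miR663a, or a single-stranded inhibitor of miR663a, and enter only as a check of the levels. All cells were HCT116 grown in RPMI medium with serum, and biotin-labelled cRNA from total RNA was hybridised to Affymetrix arrays. Each group is 1 array of 1 cell line, so there is no replicate and no test, and the number of arrays limits the precision. The arrays' titles put the inhibitor and its control the other way round from the source, description and genotype labels, and the latter were used. The log2 ratio of inhibitor over control in the authors' deposited table correlated at 1 with inhibitor minus scrambled RNA under this assignment.

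HCT116 is an epithelial line that grows quickly and has lost most features of mature intestinal cells. It is known for a stabilised form of β-catenin, the effector of Wnt signalling. Growing cells spend much of their messenger RNA on ribosomes, energy metabolism and protein folding, while receptors, channels and secreted products of specialised cells are made in few tissues.

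Levels were log2 values per probe set, a probe set being a group of short probes for one transcript. Each gene was represented by whichever of its probe sets was brightest on average over both control arrays, which gave 8787 genes. Different probe sets bind their targets with different strength, so the ranks order signals and not numbers of transcripts. A reference level was taken from 117 genes chosen as largely restricted to an organ other than colon, such as ALB of liver and MYH1 of muscle. The 90th percentile of the 62 of them that were measured lay at 5.26, so their own share above it is fixed by the rule. A gene was called low at or below 5.26, strong in the top 10% of genes (10.09 or more) and moderate in between.

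By these limits 879 genes were strong, 3475 moderate and 4433 low, so that 4354 genes (49.6%) lay above the reference level and 10% were strong. The median gene had a level of 5.23, and the middle of the distribution ran from 3.35 at the 25th percentile to 8.05 at the 75th. No gap separated the groups. The genes just inside the strong group were EMC2 (10.16 on the vector control array, 10.03 on the scrambled RNA control array), COMMD4 (9.93 and 10.27) and CCNH (10.15 and 10.04). Just outside it were AHCYL1 (10.07 and 10.11), TGIF1 (10.13 and 10.04) and GSPT1 (10.17 and 10.00). At the reference level, EIF1B-AS1 and IL27 lay just above and FAIM2, ITPR2 and CALML4 just below, all with means of 5.26.

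**Figure D1:**
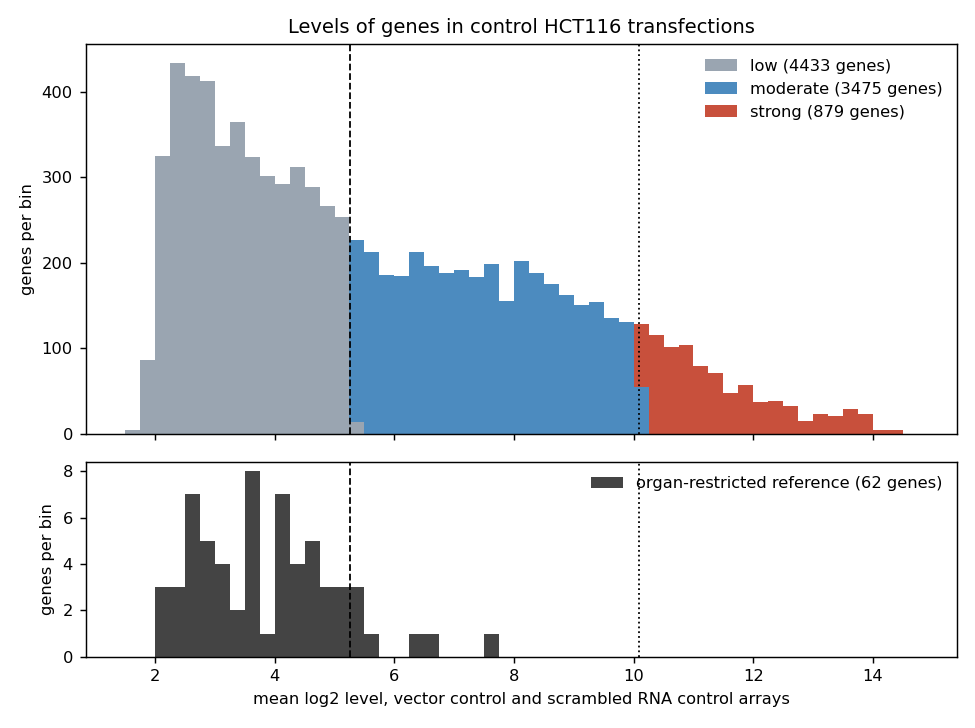
Number of genes per 0.25 log2 bin of mean level over both control arrays, coloured by group (upper panel), and the same for the organ-restricted reference genes (lower panel). The dashed line is the reference level of 5.26 and the dotted line the limit of 10.09 for strong genes, and the distribution runs across both without a break.

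The kind of probe set moved with the level. The value table holds 16381 probe sets in order of their identifiers and stops partway through the array, so a gene can be represented by a minor probe set while others have no level here. Genes represented by a probe set whose identifier begins with 20 numbered 4772, and 73.6% of them lay above the reference level. Of the 4005 genes represented by a probe set of the series that begins with 15, 20.9% did. A low level in the latter therefore describes that probe set, and 2112 low genes have further probe sets in the authors' deposited table of ratios, which gives no levels. Among 2707 genes with 2 or more probe sets with levels, the brightest and the dimmest differed by a median of 1.36, and in 757 they lay on either side of the reference level.

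The 2 control arrays gave nearly the same order of genes. Across genes, which are not replicates and share array and probe sets, Pearson's r was 0.997 and Spearman's rho 0.995. On each array taken alone 8512 genes (96.9%) fell in the same group, and 0 genes were strong on one and low on the other. The median absolute difference was 0.16 for low, 0.15 for moderate and 0.10 for strong genes. Spearman's rho with the mean of the miR663a arrays was 0.998, and 868 of the 879 genes that are strong on those arrays were strong on the control arrays.

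A difference of 2-fold or more between the control arrays was seen in 10 genes (0.114%), of which 5 were low, 5 moderate and 0 strong. The 5 moderate genes are named here because of their values. CXCL8, a chemokine that attracts neutrophils, had a level of 10.13 on the vector control array and 7.31 on the scrambled RNA control array, and 10.31 and 7.70 with miR663a overexpression and inhibitor. UPP1, uridine phosphorylase, had 9.28 and 8.07, and 9.21 and 7.94 on the miR663a arrays. CXCL1, a related chemokine, had 6.66 and 5.58, and 6.60 and 5.68. The zinc finger gene ZMYM5 had 6.72 and 5.18, and 5.85 and 5.59 on the miR663a arrays. For these 4 genes both plasmid arrays were higher than both arrays of single-stranded RNA. Plasmid and RNA, and whatever else differed between those transfections, cannot be told apart. ZNF623, also a zinc finger gene, had 6.77 and 5.72, and 6.18 with overexpression and 6.59 with the inhibitor, so its arrays did not divide in that way.

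**Figure D2:**
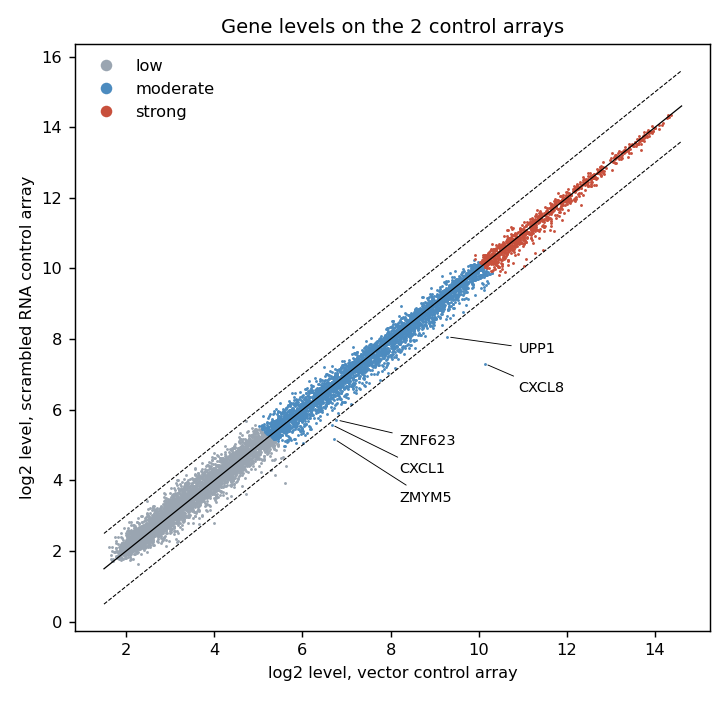
Level of each of the 8787 genes on the vector control array (x axis, log2) and on the scrambled RNA control array (y axis, log2), coloured by group. The solid line marks equal levels and the dashed lines a 2-fold difference, and the 5 moderate genes outside them are named.

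The brightest genes were those of protein synthesis. EEF1A1, which carries aminoacyl-tRNA to the ribosome, had the highest level (14.35 on both arrays), followed by the ribosomal protein gene RPL41 (14.29 and 14.33). Ribosomal proteins of the cytosol made up 22 of the top 30 genes and 59 of the top 100. Of 68 measured members 62 were strong, with a median of 13.66 over all members. The 6 low members were RPL13 and RPS9, each on a probe set of the series that begins with 15 and with further probe sets that have no level here, RPL3L, a muscle paralogue, and the pseudogenes RPL32P3, RPS10P7 and RPS16P5. For 44 of the 68, the probe sets with levels all ended in _x_at or _s_at, which can bind several transcripts, and ribosomal proteins have many processed copies in the genome. Translation factors were strong in 24 of 26 cases, among them EEF2 (13.60 and 13.52), EEF1G (13.41 and 13.43) and RACK1 (13.57 and 13.47). PABPC1, which binds the poly(A) tail, read 3.21 and 3.43 on its only probe set with a level.

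Splicing factors had 32 strong and 9 moderate members, and none of the 41 was low. HNRNPA1 (13.23 and 13.16) and the core splicing protein SNRPD2 (13.08 and 13.20) led them. Of 17 aminoacyl-tRNA synthetases 12 were strong, and of 16 genes of RNA polymerase II and its general factors 5. Mitochondrial ribosomal proteins had 7 strong members of 11. So the genes for translation and splicing lay almost entirely above the reference level, beside 49.6% of all genes.

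Protein quality control was equally high. Of 25 proteasome subunits 24 were strong, led by PSMB1 (12.76 and 12.89) and PSMB4 (12.51 and 12.63). Chaperones had 20 strong members of 22, with the cyclophilin PPIA at 13.92 and 14.04, the mitochondrial HSPD1 at 13.54 and 13.57 and HSP90AB1 at 13.23 and 13.31.

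Energy metabolism followed. Glycolysis had 8 strong and 5 moderate members of 13, and LDHA (13.40 and 13.54), LDHB (13.32 and 13.44), ALDOA (13.08 and 13.15) and ENO1 (12.98 and 13.08) were its brightest. Oxidative phosphorylation had 36 strong members of 43, led by the cytochrome oxidase subunits COX7C (13.06 and 13.12) and COX4I1 (12.99 and 13.12). Among mitochondrially encoded subunits, COX1 had 14.31 and 14.30 and COX2 had 14.30 and 14.30. The authors' table places these probe sets on chromosome 1, and copies of mitochondrial DNA in the nuclear genome were not told apart here. The citric acid cycle (5 strong and 6 moderate of 11), nucleotide synthesis (8 and 6 of 14) and cholesterol synthesis (7 and 8 of 16) had medians of 9.82, 10.70 and 9.47.

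Genes of proliferation were present at moderate to strong levels. DNA replication had 9 strong and 20 moderate members of 30, with PCNA, the sliding clamp, at 12.20 and 12.22 and the helicase subunit MCM6 at 11.21 and 11.16. Mitosis had 11 strong and 15 moderate members of 26, among them UBE2C (11.85 and 12.04) and BUB3 (11.90 and 11.95). Cyclins, kinases and inhibitors of G1 had 2 strong, 12 moderate and 1 low member of 15. CDK4, which drives the G1 phase, had 11.32 and 11.41. The low member was CCND2, a partner of CDK4, at 3.31 and 3.67.

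**Figure D3:**
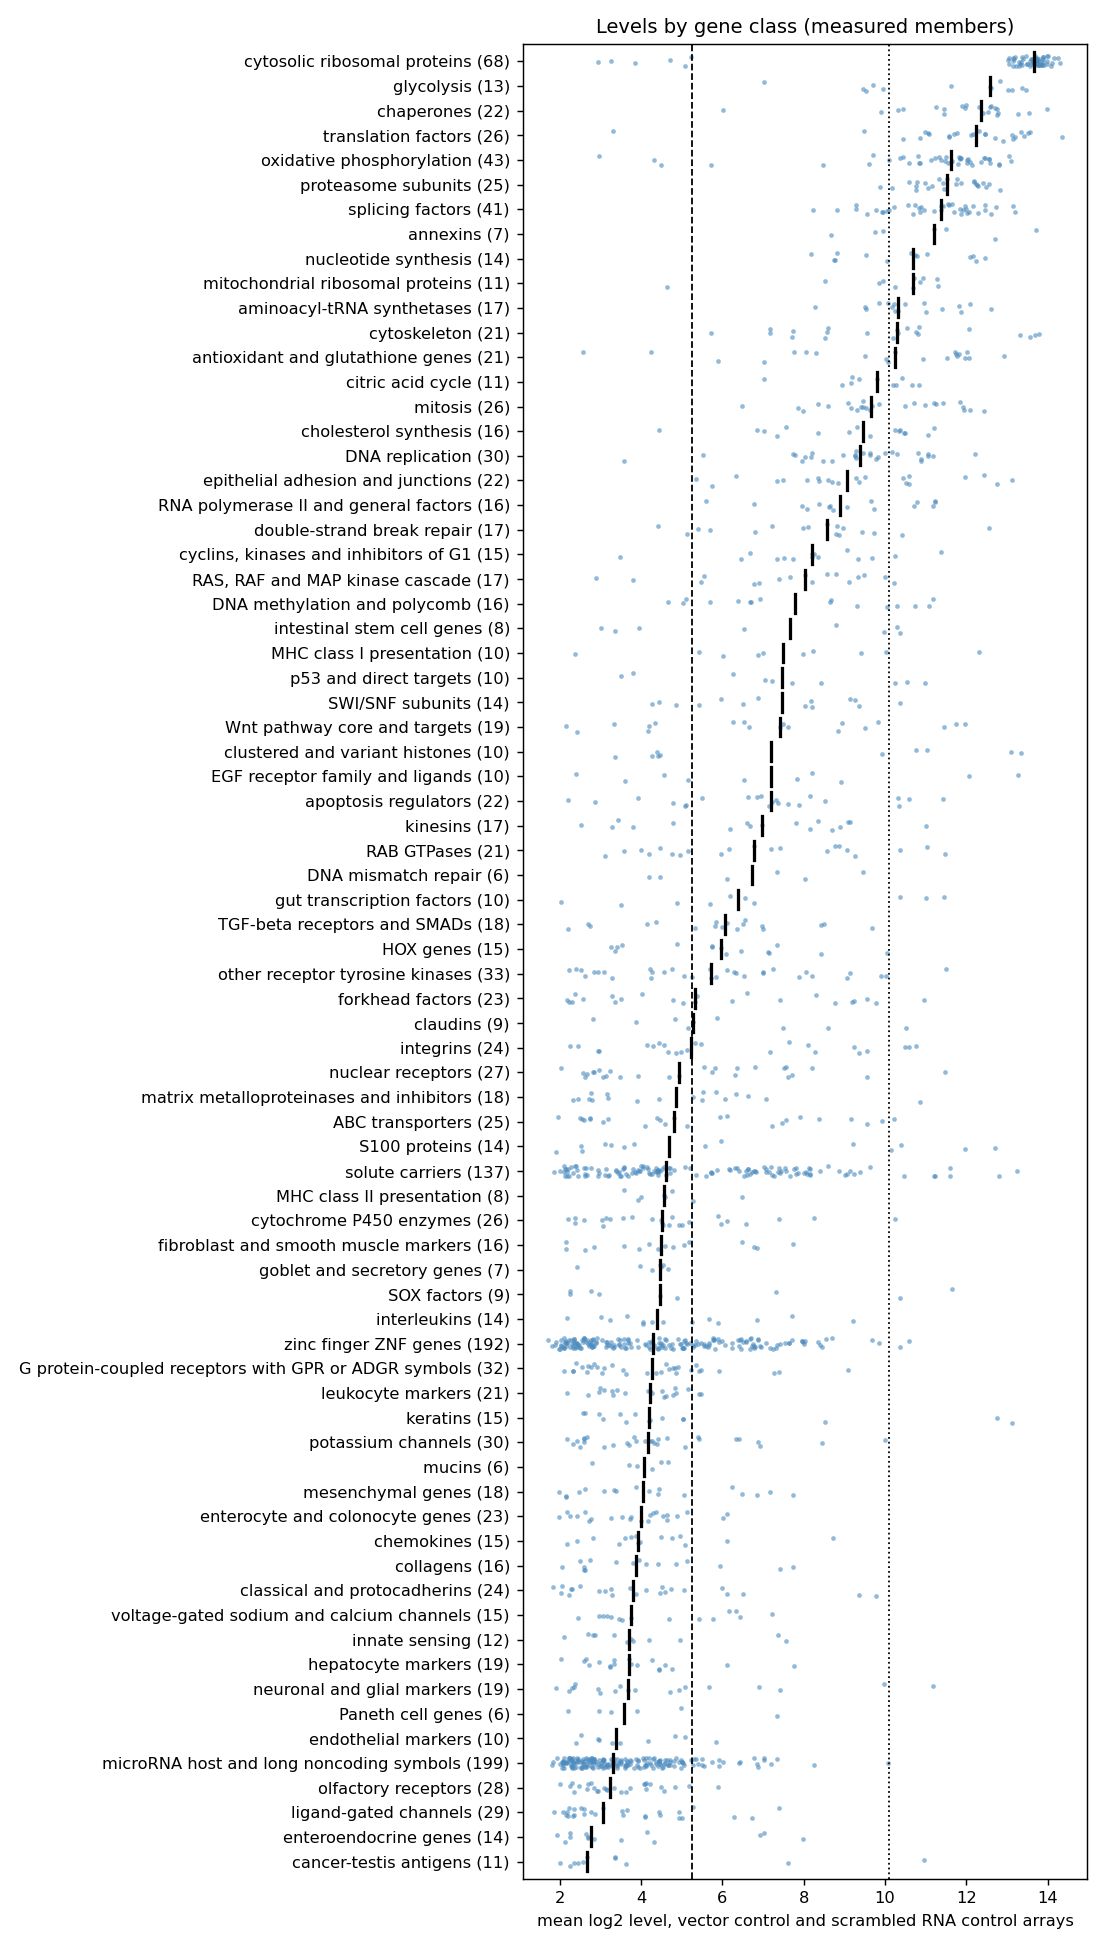
Mean log2 level over both control arrays of every measured member (points) of the 74 gene classes with at least 5 measured members, ordered by class median (black bar), with the number measured in parentheses. The dashed line is the reference level and the dotted line the limit for strong genes. Ribosomal proteins, glycolysis and chaperones lie at the top, and 34 classes have a median at or below the reference level.

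Class counts depended on which probe sets were allowed. Without probe sets ending in _x_at or _s_at 1837 genes had no level, and 2698 of the remaining 6950 (38.8%) lay above the reference level. Measured members above it then numbered 16 of 24 ribosomal proteins, 12 of 12 adhesion genes, 5 of 14 TGF-β genes, 5 of 9 HOX genes and 1 of 7 mesenchymal genes. The top 10% then held 695 genes, of which 433 were among the 879 strong genes.

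HCT116 carried an epithelial profile. All 22 measured genes of epithelial adhesion and junctions lay above the reference level, 8 of them strong. The keratins KRT18 (13.11 and 13.13) and KRT19 (12.73 and 12.79), the surface protein EPCAM (12.55 and 12.35) and CTNNB1, β-catenin (12.01 and 11.94), were its brightest members. CDH1, E-cadherin, was moderate (9.38 and 9.36). Mesenchymal genes had 0 strong, 5 moderate and 13 low members of 18. COL1A1 (7.85 and 7.62) and VIM (6.94 and 7.39) were the highest of these, and ZEB2 (1.76 and 2.22), a repressor of E-cadherin, the lowest. The dimmest probe sets of COL1A1 and VIM had means of 3.12 and 2.29, below the reference level. Of the 18, 6 were represented by probe sets of the series that begins with 15, and 2 of these 6 lay above the reference level. The 12 low keratins of 15 measured included KRT5 (5.00 and 5.09) of basal epithelia, while KRT15 (8.55 and 8.49) was moderate. Probe sets of the series that begins with 15 represented 8 of the 15 keratins, and 0 of these 8 lay above the reference level.

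Markers of mature intestinal cells were mostly low. Of 23 enterocyte and colonocyte genes 21 were low and 2 moderate, CYP3A4 (6.18 and 6.03) and VIPR1 (5.87 and 6.17). The brush border enzyme SI had 2.06 and 1.91, the chloride exchanger SLC26A3 2.04 and 2.31, the fatty acid carrier FABP1 2.39 and 2.13, and CEACAM5, carcinoembryonic antigen, 2.59 and 2.86. All 7 goblet cell genes were low, MUC2 at 4.51 and 4.49 and TFF3 at 4.68 and 4.39. Of 6 Paneth cell genes 5 were low, LYZ at 3.02 and 2.90 among them, and PRSS2 had 7.40 and 7.31. CYP3A4, VIPR1 and PRSS2 were each represented by a probe set ending in _x_at or _s_at. Without such probe sets 0 of 16 enterocyte and 0 of 3 Paneth cell genes lay above the reference level. Enteroendocrine genes had 11 low members of 14, with CHGA at 3.41 and 3.62. CPE, which trims peptide hormones (7.92 and 8.05), SCG2 (7.03 and 7.02) and PAX6 (7.16 and 6.70) were moderate. Of the 14 genes 1 is also in the organ-restricted list that set the reference level. It was low, as were 10 of the other 13. These counts are relative to the reference list. With the median of all probe sets (4.14) as the reference level, 11 of 23 enterocyte, 5 of 7 goblet, 5 of 14 enteroendocrine and 2 of 6 Paneth cell genes lay above it.

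Regulators of the intestinal lineage were mixed. Of 10 gut transcription factors 3 were strong, MYC (11.54 and 11.38), HES1 (11.01 and 11.01) and SOX9 (10.42 and 10.35). CDX2, the caudal factor that marks intestinal identity, was moderate at 5.98 and 6.39, and CDX1 lay near the reference level at 5.45 and 5.94. GATA4 (4.87 and 4.92), FOXA1 (3.46 and 3.57) and NR5A2 (2.03 and 2.03) were low. Of 8 stem cell genes, SOX9 and BMI1 (10.53 and 10.06) were strong. CD44 (9.98 and 9.97), PROM1 (8.84 and 8.76) and EPHB3 (6.44 and 6.64) were moderate, and TERT (4.03 and 3.86), MSI1 and HOPX low. GATA4, NR5A2, TERT and HOPX were represented by the series of probe sets where 20.9% of genes lay above the reference level. These genes and FOXA1 each have further probe sets with no level here, so their low values describe the probe sets measured.

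**Figure D4:**
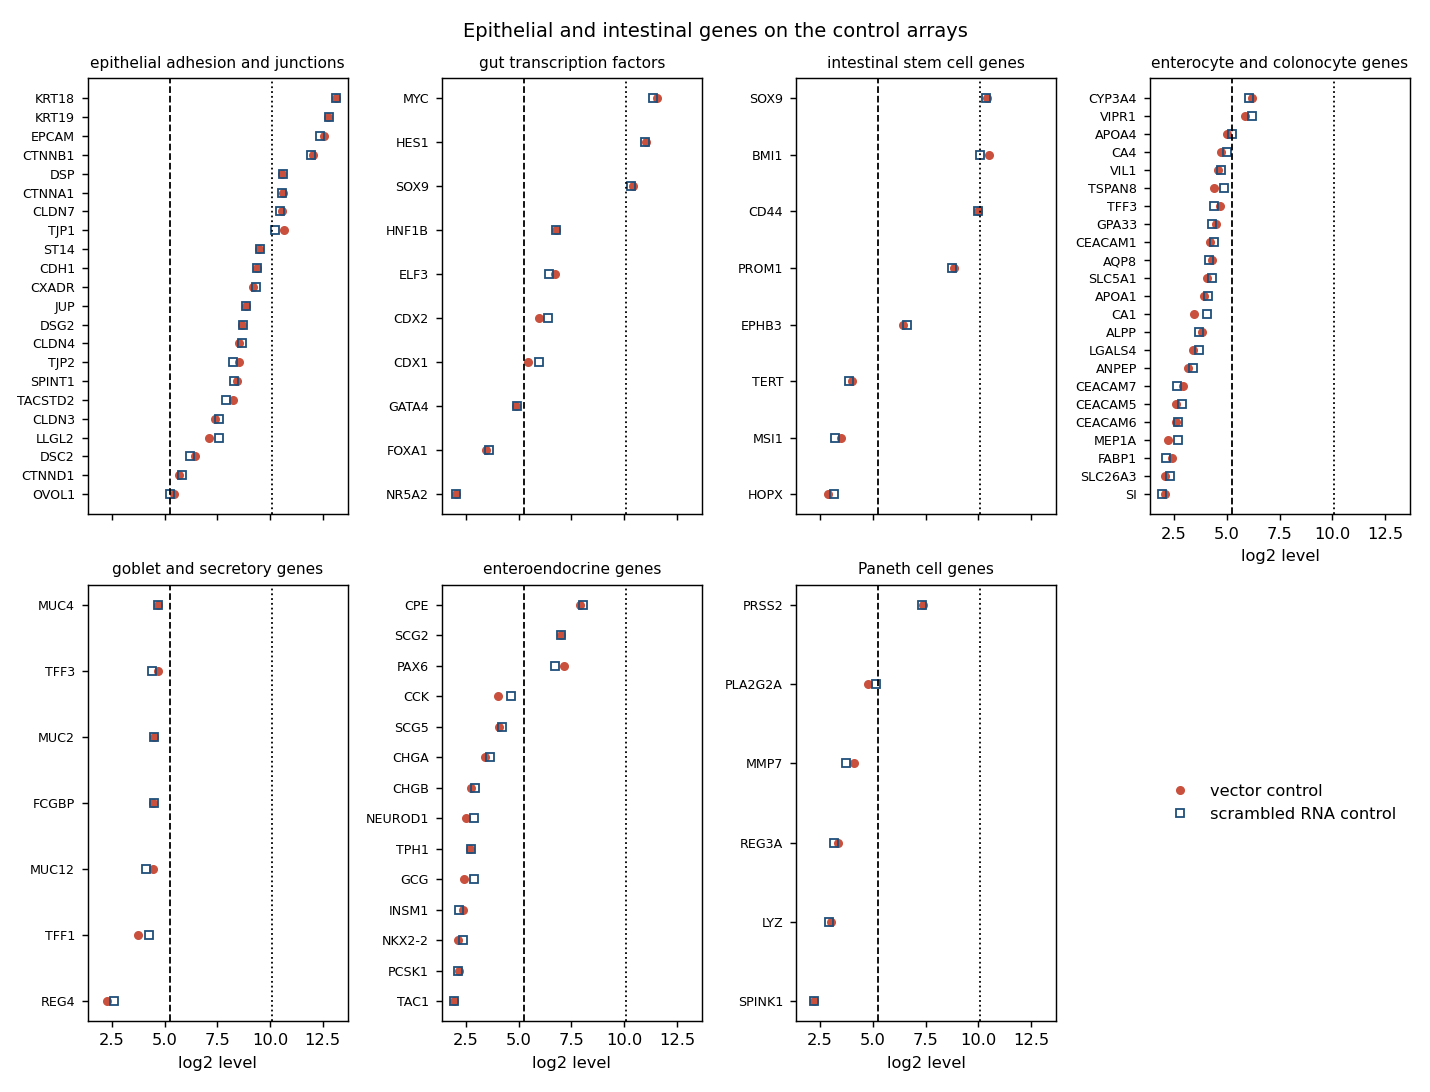
Log2 level of each measured gene of 7 epithelial and intestinal lists on the vector control array (filled circles) and the scrambled RNA control array (open squares). The dashed line is the reference level and the dotted line the limit for strong genes. All 22 adhesion genes have means to the right of the dashed line, and 21 of 23 enterocyte genes and all 7 goblet cell genes have means to the left of it.

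Homeobox genes of the HOX clusters, which record position along the body axis, were measured in small numbers, from 2 to 5 per cluster. Of 15 measured 10 lay above the reference level, beside 49.6% of all genes. All 4 measured HOXB genes lay above the reference level, HOXB7 at 10.03 and 10.06, HOXB6 at 7.45 and 7.25, HOXB5 at 7.11 and 7.18 and HOXB2 at 6.51 and 6.42. Both measured HOXA genes did, HOXA7 at 7.05 and 7.21 and HOXA4 at 5.73 and 5.77. Of 5 HOXC genes 4 did, led by HOXC6 (8.78 and 8.08), and HOXC12 (3.66 and 3.17) did not. All 4 HOXD genes were low, from HOXD9 at 5.04 and 4.74 to HOXD3 at 3.23 and 3.27. HOXC12 and HOXD4 were represented by probe sets of the series that begins with 15, where 20.9% of genes lay above the reference level.

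Among signalling genes, the EGF receptor family and its ligands had 2 strong, 4 moderate and 4 low members of 10. AREG, amphiregulin, had 13.38 and 13.16 and ranked 81 among all genes, and EREG, epiregulin, had 12.31 and 11.80. TGFA (9.01 and 8.81) and HBEGF (8.45 and 7.96) were moderate. The receptors EGFR (7.76 and 7.90) and ERBB3 (6.56 and 6.53) were moderate too, while ERBB4 (3.54 and 3.67) and the ligands NRG1 (5.35 and 4.97), NRG2 (4.45 and 4.66) and EGF (2.48 and 2.33) were low. MET, the receptor of hepatocyte growth factor, was the only strong member of 33 other receptor tyrosine kinases (11.57 and 11.41), and DDR1 (9.99 and 10.06) and EPHA2 (10.19 and 9.64) came next. Of 17 genes of the RAS and MAP kinase cascade 14 were moderate, MAP2K1 (9.56 and 9.43) and MAP2K2 (9.31 and 9.36) among them, and DUSP4, a phosphatase that turns the cascade down, was strong (10.20 and 10.24). The Wnt list had 3 strong members of 19, CTNNB1, MYC and the secreted inhibitor DKK1 (11.94 and 11.58). SMAD2 (9.72 and 9.67) and SMAD4 (8.62 and 8.38) led 13 moderate members of the 18 TGF-β genes, of which 0 were strong.

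Of 6 measured mismatch repair genes 4 were moderate and 2 low. MSH6, which recognises mismatches, had 9.56 and 9.35, the exonuclease EXO1 8.27 and 7.78 and MLH3 6.21 and 6.02. PMS1 (4.40 and 4.52) and MSH3 (4.22 and 4.17) were low. Both were represented by probe sets ending in _x_at, which can bind several transcripts. Each has further probe sets with no level here, so the low values describe the probe sets measured. Levels of messenger RNA say nothing of whether a protein is made. Among p53 targets GADD45A (11.45 and 10.52), PLK2 (10.65 and 10.41) and the cell cycle inhibitor CDKN1A (10.34 and 10.14) were strong, and MDM2 (3.24 and 3.76) was low. Only 2 of the 9 MDM2 probe sets in the authors' deposited table of ratios have a level here, so the low value describes those. The maintenance DNA methyltransferase DNMT1 had 11.06 and 11.10.

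Most markers of other cell types were low. Leukocyte markers had 19 low members of 21, with PTPRC, the common leukocyte antigen, at 2.04 and 2.30. Endothelial markers had 9 low members of 10, hepatocyte markers 17 of 19 with ALB at 1.93 and 2.16, and olfactory receptors 27 of 28. Of the hepatocyte markers 7 are also in the organ-restricted list that set the reference level, all of them low, and 10 of the other 12 were low. PTPRC, ALB and all 28 olfactory receptors were represented by probe sets of the series that begins with 15, where 20.9% of genes lay above the reference level. Fibroblast and smooth muscle markers had 12 low members of 16. COL1A1 (7.85 and 7.62), TAGLN (6.74 and 6.96), FBLN1 (6.80 and 6.77) and ACTA2 (6.62 and 6.34) were moderate, and the dimmest COL1A1 probe set had a mean of 3.12. Against the median of all probe sets, 12 leukocyte, 4 endothelial and 7 hepatocyte markers and 6 olfactory receptors lay above. The neuronal list held TUBB3, a tubulin of neurons, at 11.03 and 11.32 and the vesicle protein SYT1 at 9.84 and 10.11, beside 14 low members of 19. The only TUBB3 probe set with a level ends in _x_at, so it can bind several transcripts. Among 11 cancer-testis antigens, MAGEB2 stood alone as strong (10.95 and 10.98), PRAME was moderate (7.52 and 7.70), and 9 were low.

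Immune presentation split by class. The class I light chain B2M was strong (12.42 and 12.21), HLA-E (10.03 and 10.05) moderate, and 9 of 10 class I genes lay above the reference level. Of 8 class II genes 6 were low, including their regulator CIITA (3.79 and 4.05). Of 12 genes of innate sensing 10 were low, and only EIF2AK2 (7.69 and 7.46) and IRF3 (7.36 and 7.40) were moderate. Ion channels and receptors had no strong member in 5 of 7 families, beside 10% strong among all genes. Ligand-gated channels, with 25 low of 29, and potassium channels, with 22 low of 30, were among the 5. Solute carriers (7 strong of 137) and ABC transporters (1 of 25) were the other families. In the 5, the series that begins with 15 represented 28 of 28 olfactory receptors, 18 of 32 GPR and ADGR receptors and 13 of 30 potassium channels. It also represented 12 of 29 ligand-gated channels and 7 of 15 voltage-gated sodium and calcium channels. On that series 31 of 4005 genes were strong. Zinc finger genes with ZNF symbols were low in 125 of 192 cases, and noncoding RNA symbols in 177 of 199, MALAT1 being the brightest (9.90 and 10.24). Probe sets of the series that begins with 15 represented 133 of the former and 198 of the latter. Above the reference level were 17.3% of these 133 and 10.6% of these 198, beside 20.9% of all genes on that series.

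Promoters were compared between levels with RefSeq sequences of GRCh38.p14, from 250 bases before to 50 after the transcription start. Of the 8787 genes 6437 had an entry, and the 4607 with a single listed start were used. The windows and motifs were chosen after levels had been seen, and features are a description across genes. CpG observed over expected is the number of CG pairs relative to the number that the C and G content would give. Its median was 0.586 in the dimmest decile of genes, 0.525 in the third and 0.917 in the brightest. A ratio of 0.6 or more was found in 95.9% of strong, 85.9% of moderate and 51.2% of low genes. The organ-restricted reference genes had a median of 0.236, and enterocyte genes 0.142. The genes compared also include 135 noncoding RNA symbols, with a median of 0.346, and 22 olfactory receptors, with 0.0999. Of all 4433 low genes 3168 were represented by probe sets of the series that begins with 15, where a low level describes the probe set. The ratio was not compared by level within one kind of probe set or gene.

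**Figure D5:**
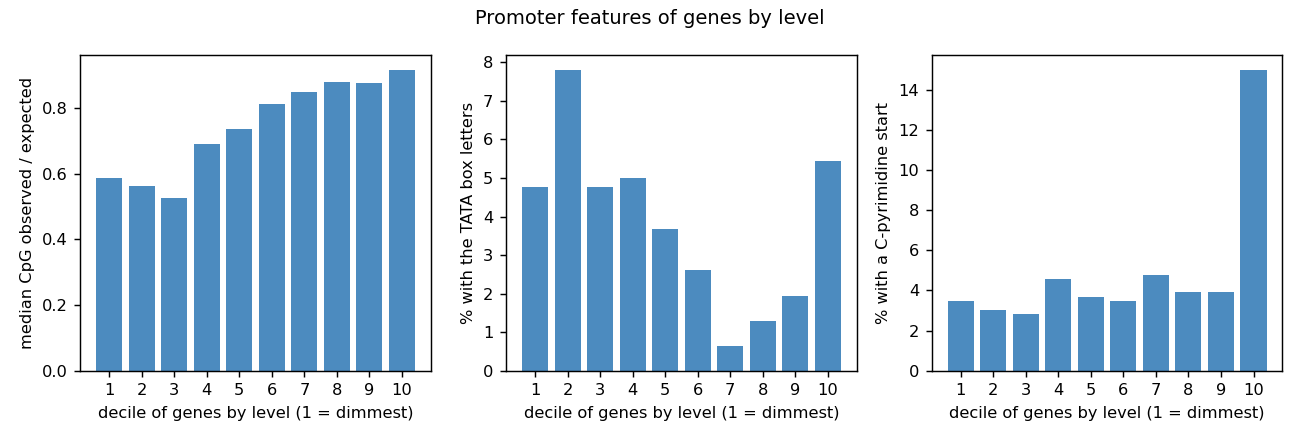
Median CpG observed over expected (left), percent of promoters with TATAAA between 40 and 10 bases before the start (middle) and percent that start with C and at least 4 further pyrimidines (right), by decile of genes from the dimmest (1) to the brightest (10). The CpG ratio is highest in the brightest decile, TATAAA is most frequent in the second, and the pyrimidine start stands at 15% in the brightest decile against at most 4.78% in the others.

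A strong epithelial gene and a low enterocyte gene show the contrast in CpG. The windows run from 250 bases before to 20 after the start (GRCh38.p14), with each CG in capitals, CTNNB1 at chr3:41199255-41199524 on the plus strand and SI at chr3:165078477-165078746 on the minus strand. CTNNB1, the brightest adhesion gene with a single start, holds 35 CG pairs in the window and SI, the dimmest enterocyte gene with one, holds 0.
CTNNB1: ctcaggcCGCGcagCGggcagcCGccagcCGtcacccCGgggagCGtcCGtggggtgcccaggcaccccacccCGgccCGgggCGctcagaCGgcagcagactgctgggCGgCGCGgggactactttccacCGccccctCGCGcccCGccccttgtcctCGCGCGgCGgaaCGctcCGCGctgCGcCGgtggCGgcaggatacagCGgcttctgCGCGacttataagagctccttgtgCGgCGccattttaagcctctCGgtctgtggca
SI: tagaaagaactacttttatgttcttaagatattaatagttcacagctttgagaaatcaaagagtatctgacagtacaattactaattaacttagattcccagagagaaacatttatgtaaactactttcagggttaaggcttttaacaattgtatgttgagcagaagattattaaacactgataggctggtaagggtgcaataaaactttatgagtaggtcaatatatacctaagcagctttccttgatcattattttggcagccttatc

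Transcripts of the translation machinery are known to begin with a C and a run of pyrimidines, through which growth signals control their translation. A start with C followed by at least 4 C or T bases, read on the gene's strand, was found in 31 of 41 ribosomal protein genes (75.6%) and 9 of 19 translation factors. It was found in 4.86% of all genes compared and in 4.07% of all 35116 promoters of the table. The 5 brightest such genes of these classes are shown from 40 bases before to 20 after the start, with the C and its pyrimidine run in capitals, EEF1A1 at chr6:73521013-73521072 on the minus strand, RPL41 at chr12:56116593-56116652 on the plus strand, RPL37A at chr2:216498804-216498863 on the plus strand, RPS18 at chr6:33272035-33272094 on the plus strand and RPS3A at chr4:151099588-151099647 on the plus strand.
EEF1A1: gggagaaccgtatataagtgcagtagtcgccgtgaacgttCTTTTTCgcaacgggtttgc
RPL41: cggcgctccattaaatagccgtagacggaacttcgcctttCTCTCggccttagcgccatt
RPL37A: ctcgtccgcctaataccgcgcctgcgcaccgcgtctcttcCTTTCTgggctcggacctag
RPS18: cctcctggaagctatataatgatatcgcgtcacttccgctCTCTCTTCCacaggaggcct
RPS3A: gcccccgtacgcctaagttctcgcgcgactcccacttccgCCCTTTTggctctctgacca

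Among the brightest decile of genes 69 of 460 (15%) had such a start. Ribosomal proteins and translation factors are mostly strong, and how many of the 69 belong to these classes was not counted.

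The letters TATAAA, the core of the TATA box, were searched on the gene's strand between 40 and 10 bases before the start. They were present in 15 of 37 organ-restricted reference genes (40.5%), beside 3.80% of all genes compared and 2.36% of all promoters. Their share did not follow level in one direction, with 7.81% in the second decile, 0.652% in the seventh and 5.43% in the brightest. Of 7 histone genes 5 held them. The 4 dimmest reference genes with the letters are shown from 50 bases before to 10 after the start, with TATAAA in capitals, CYP2E1 at chr10:133527313-133527372 on the plus strand, MYH2 at chr17:10549649-10549708 on the minus strand, SEMG1 at chr20:45206983-45207042 on the plus strand and MYH1 at chr17:10518533-10518592 on the minus strand. CYP2E1 is a liver cytochrome, MYH1 and MYH2 are myosins of skeletal muscle and SEMG1 is a protein of semen.
CYP2E1: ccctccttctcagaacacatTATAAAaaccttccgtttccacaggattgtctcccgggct
MYH2: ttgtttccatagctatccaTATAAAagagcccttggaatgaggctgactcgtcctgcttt
SEMG1: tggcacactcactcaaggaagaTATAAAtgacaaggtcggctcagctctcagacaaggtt
MYH1: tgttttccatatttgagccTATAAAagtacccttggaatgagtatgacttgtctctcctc

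All 4 were low on both control arrays, CYP2E1 at 2.67 and 2.53, MYH2 at 2.67 and 2.42, SEMG1 at 2.30 and 2.67 and MYH1 at 2.27 and 2.25.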

How the data were processed

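The arrays of 4 HCT116 transfections were measured, and the 2 controls were used for levels. The deposited values are on a log2 scale, with 16381 probe sets per array. The submitters' processing notes name MAS5 with no version, and normalization was not given in the sources used here. Another deposited table gives linear ratios and gene annotation for 42450 probe sets. It served to name probe sets and to check the array assignment. Detection calls were not used here.

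Probe sets were named through accessions in a RefSeq gene table of GRCh38.p14 (11480), current symbols (225), older symbols (142) or the file's symbol (631). Those listing several genes (226) and 3677 with no row in the annotation were left out of gene counts. The rule for several genes was widened after seeing values, when a probe set listing a mitochondrial and a nuclear gene had been given to the nuclear one. The brightest probe set per gene was used. There were 79 classes, 46 lists and 33 symbol families. Members and lists were chosen with earlier results of these data known. Symbol families take some other genes, such as ITGB3BP among integrins and receptors among interleukins.

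Named genes were the top 30, the 4 brightest and 2 dimmest of each class, all measured members of the mismatch repair, EGF, HOX, gut factor and intestinal lists, and 3 genes on each side of each limit. A few genes that this rule takes are left out of the text. Genes outside that rule were named after their values were seen: 3 genes that differed between the control arrays (UPP1, ZMYM5 and ZNF623), 4 low members of the ribosomal family (RPL13, RPS9, RPL32P3 and RPS16P5), and MYH1, MYH2 and SEMG1 for their promoters. Alternatives changed the array, the scaling, the probe set, the reference level and the strong limit. The grouping was tested on simulated data of 3000 genes, where 99% of strong genes were recovered. Python 3.11.15, numpy 2.4.6, pandas 2.3.3 and matplotlib 3.10.9 were used.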

Additional observations from a re-analysis of the deposited data

How the results depend on the processing

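No paired analysis was possible because each group is 1 array and no test was made. The protein length planned by level was not run, as protein sequences were not used here. The number of genes above the reference level was 3949 to 5619 of 8787 under the 10 alternatives that kept all genes, against 4354. Fewer genes had a level under the other 2, with 2698 of 6950 (38.8%) above it without probe sets ending _x_at and _s_at and 3678 of 4875 (75.4%) with only identifiers that begin with 20, an alternative chosen after seeing the data. The number of strong genes is a fixed share of the genes ranked, so it was 488 with only identifiers that begin with 20 and 439 with the top 5%. Of the 879 strong genes, 433 were strong without probe sets ending _x_at and _s_at, 730 with the average of a gene's probe sets and 858 to 868 on other choices of arrays. Classes of at least 5 measured members with a median at or below the reference level numbered 34, a summary defined after class values were seen. They were 17 with the median of all probe sets as the reference level and 21 with only identifiers that begin with 20. The difference in CpG ratio between the brightest and dimmest deciles was 0.331, and 0.346 and 0.324 on single arrays.

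Each class count was also recomputed, and counts that differed by over 1.5 times follow. Quantile normalization moved 0 of them, and centring each array shifts all genes and the reference level alike, so it could move none. Leukocyte markers above the reference level were 1 of 21 on the vector control array alone, 0 with the vector control and the array titled ctrl, 1 on the miR663a arrays and 0 at the 95th percentile of the reference list, against 2. On the scrambled RNA control array alone class II genes were 1 of 8 and olfactory receptors 2 of 28. On the miR663a arrays endothelial markers were 0 of 10. Averaging every probe set of a gene, hepatocyte markers were 1 of 19 and olfactory receptors 2 of 28. At the 95th percentile class II genes were 1 of 8 and GPR and ADGR receptors 4 of 32. Identifiers that begin with 20 measured 0 olfactory receptors and 1 noncoding RNA symbol, which was above the level. Without probe sets ending _x_at and _s_at, members above the reference level numbered 13 of 16 translation factors (from 25 of 26), 17 of 19 splicing factors (from 41 of 41), 11 of 12 aminoacyl-tRNA synthetases (from 17 of 17), 16 of 16 proteasome subunits (from 25 of 25), 13 of 13 chaperones (from 22 of 22), 6 of 6 glycolysis (from 13 of 13) and 4 of 4 citric acid cycle (from 11 of 11). Under that exclusion the counts were also 22 of 27 oxidative phosphorylation (from 40 of 43), 7 of 8 cholesterol synthesis (from 15 of 16), 7 of 8 nucleotide synthesis (from 14 of 14), 9 of 12 cytoskeleton (from 21 of 21), 15 of 16 mitosis (from 26 of 26), 2 of 3 DNA mismatch repair (from 4 of 6) and 8 of 11 double-strand break repair (from 15 of 17). The same exclusion gave 9 of 16 apoptosis regulators (from 16 of 22), 5 of 8 p53 and direct targets (from 8 of 10), 12 of 12 epithelial adhesion and junctions (from 22 of 22), 1 of 7 mesenchymal genes (from 5 of 18), 4 of 8 gut transcription factors (from 7 of 10), 2 of 6 intestinal stem cell genes (from 5 of 8) and 0 of 16 enterocyte and colonocyte genes (from 2 of 23). It further left 1 of 9 enteroendocrine genes (from 3 of 14), 0 of 3 Paneth cell genes (from 1 of 6), 0 of 9 endothelial markers (from 1 of 10), 2 of 8 fibroblast and smooth muscle markers (from 4 of 16), 3 of 15 neuronal and glial markers (from 5 of 19), 1 of 5 hepatocyte markers (from 2 of 19) and 10 of 21 other receptor tyrosine kinases (from 18 of 33). Counts after the exclusion were 8 of 12 Wnt pathway core and targets (from 13 of 19), 5 of 14 TGF-beta receptors and SMADs (from 13 of 18), 4 of 6 MHC class I presentation (from 9 of 10), 1 of 6 MHC class II presentation (from 2 of 8), 1 of 11 innate sensing (from 2 of 12), 6 of 8 DNA methylation and polycomb (from 13 of 16) and 7 of 10 SWI/SNF subunits (from 11 of 14). Remaining counts under it were 16 of 24 cytosolic ribosomal proteins (from 62 of 68), 5 of 7 mitochondrial ribosomal proteins (from 10 of 11), 2 of 6 clustered and variant histones (from 5 of 10), 5 of 9 HOX genes (from 10 of 15), 3 of 7 claudins (from 5 of 9), 3 of 22 classical and protocadherins (from 5 of 24) and 1 of 10 collagens (from 3 of 16). The last of its counts were 4 of 5 annexins (from 7 of 7), 0 of 27 olfactory receptors (from 1 of 28), 7 of 19 ABC transporters (from 11 of 25), 1 of 1 metallothioneins (from 4 of 4), 3 of 12 interleukins (from 6 of 14), 1 of 13 chemokines (from 2 of 15) and 6 of 21 nuclear receptors (from 13 of 27). Also without these probe sets there were 3 of 15 forkhead factors (from 12 of 23), 7 of 12 kinesins (from 12 of 17), 8 of 15 RAB GTPases (from 13 of 21) and 3 of 13 matrix metalloproteinases and inhibitors (from 9 of 18). At the 75th percentile of the reference list, the counts were 6 of 23 enterocyte and colonocyte genes (from 2 of 23), 1 of 7 goblet and secretory genes (from 0 of 7), 2 of 6 Paneth cell genes (from 1 of 6), 8 of 21 leukocyte markers (from 2 of 21), 3 of 10 endothelial markers (from 1 of 10), 8 of 16 fibroblast and smooth muscle markers (from 4 of 16) and 8 of 19 neuronal and glial markers (from 5 of 19). The 75th percentile also gave 4 of 19 hepatocyte markers (from 2 of 19), 5 of 8 MHC class II presentation (from 2 of 8), 5 of 15 keratins (from 3 of 15), 8 of 24 classical and protocadherins (from 5 of 24), 5 of 16 collagens (from 3 of 16), 1 of 6 mucins (from 0 of 6) and 4 of 28 olfactory receptors (from 1 of 28). Other counts at the 75th percentile were 14 of 32 GPR and ADGR receptors (from 7 of 32), 7 of 29 ligand-gated channels (from 4 of 29), 12 of 26 cytochrome P450 enzymes (from 7 of 26), 5 of 15 chemokines (from 2 of 15) and 42 of 199 noncoding RNA symbols (from 22 of 199). With the median of all probe sets as the reference level, the counts were 9 of 18 mesenchymal genes (from 5 of 18), 11 of 23 enterocyte and colonocyte genes (from 2 of 23), 5 of 7 goblet and secretory genes (from 0 of 7), 5 of 14 enteroendocrine genes (from 3 of 14), 2 of 6 Paneth cell genes (from 1 of 6), 12 of 21 leukocyte markers (from 2 of 21) and 4 of 10 endothelial markers (from 1 of 10). That median also gave 10 of 16 fibroblast and smooth muscle markers (from 4 of 16), 8 of 19 neuronal and glial markers (from 5 of 19), 7 of 19 hepatocyte markers (from 2 of 19), 5 of 8 MHC class II presentation (from 2 of 8), 4 of 12 innate sensing (from 2 of 12), 9 of 10 clustered and variant histones (from 5 of 10) and 8 of 15 keratins (from 3 of 15). Further counts above the median were 10 of 24 classical and protocadherins (from 5 of 24), 20 of 24 integrins (from 12 of 24), 6 of 16 collagens (from 3 of 16), 3 of 6 mucins (from 0 of 6), 6 of 28 olfactory receptors (from 1 of 28), 17 of 32 GPR and ADGR receptors (from 7 of 32) and 15 of 30 potassium channels (from 8 of 30). Last, the median gave 9 of 29 ligand-gated channels (from 4 of 29), 16 of 26 cytochrome P450 enzymes (from 7 of 26), 6 of 15 chemokines (from 2 of 15), 5 of 9 SOX factors (from 3 of 9), 101 of 192 zinc finger ZNF genes (from 67 of 192) and 60 of 199 noncoding RNA symbols (from 22 of 199). Leaving out _x_at and _s_at probe sets reduced the measured members of the classes listed, and a lower reference level raises counts by construction.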

Other observations

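Probe sets that belong in no gene count were mostly dim. Of the 3677 probe sets with no row in the annotation 191 (5.19%) lay above the reference level, with a median of 2.86. Of the 226 probe sets listing several genes 18 were at or above the limit for strong genes, among them one for MYL12A and MYL12B, light chains of myosin (12.66 and 12.59 on the vector and scrambled RNA control arrays).

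By chromosome in the authors' table, the share of genes above the reference level ran from 36.8% of 337 genes on chromosome 4 to 59.1% of 352 on chromosome 16, as a description with no test.

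Strong genes in none of the lists, chosen after their values were seen, included the nucleolar protein NPM1 (13.70 and 13.63), the iron store FTH1 (13.69 and 13.36), the galectin LGALS1 (13.28 and 13.33) and the stress factor ATF4 (12.82 and 12.86). Of the 879 strong genes 363 were in at least 1 class.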
